A study of Mus musculus with 1814 samples.

Results

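The 8 genes described here serve the synthesis of sterols and its control, and all 8 were found in both combined count tables, among 25125 genes for 965 cells of experiments 1, 3 and 4 and among 15177 genes for 373 cells of experiment 5. They were taken by name. Hmgcs1, Idi1, Fdps, Fdft1, Sqle and Lss encode enzymes, while Insig1 and Srebf2 encode regulators. None of the 8 is an uptake receptor, so the uptake genes were followed in a separate list. Each sample was 1 mouse germinal center B cell, index-sorted into a plate well. SmartSeq2 reads whole transcripts and carries no molecular identifiers, so counts are of reads and not of molecules. In experiments 3 and 4 the compared cells were dark zone (DZ) and light zone (LZ) Dec+ cells at 12, 30, 46 and 60 h. In experiment 1 they were DZ Dec+ cells at 30 h only and LZ Dec+ and Dec- cells at 12 h only. In experiment 5 they were KO, TA and WT cells of the DZ and the LZ. The labels gave no strain, age, animal or treatment for any group, did not say what Dec+ cells had received, and gave no time for experiment 5. Plate names of experiment 5 include Ccnd3, while what KO and TA alter was not given in the labels.

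Cholesterol is built from acetyl-CoA through mevalonate, farnesyl diphosphate, squalene and lanosterol, and a dividing cell needs it for new membrane. Srebf2 encodes SREBP2, the membrane-bound transcription factor that switches these genes on. When sterols are plentiful, INSIG proteins hold SREBP2 and its escort SCAP in the endoplasmic reticulum, and when sterols are scarce the factor is released, cut and sent to the nucleus. Insig1 is itself a target of SREBP2. Germinal center B cells divide mostly in the DZ and are selected in the LZ with the help of T cells.

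SREBP2 binds sterol response elements and often acts beside the factor NF-Y. The promoters of Insig1 and Idi1 are shown because both genes passed the test between phases, and that of Hmgcs1 because it held the element, 5′ to 3′ on the gene's strand, from 250 bases before to 50 bases after the start site. Promoters of 5 of the 8 genes were in the RefSeq table (build GRCm38.p6). Capitals mark matches, on either strand, to a sterol response element (TCACNCCAC), an E box (CACGTG) or the NF-Y box (CCAAT, which reads ATTGG on the other strand). The stretches lay at chr5:28071162-28071461 for Insig1, at chr13:8885356-8885655 for Idi1 and at chr13:119690101-119690400 for Hmgcs1, all on the plus strand.
Insig1: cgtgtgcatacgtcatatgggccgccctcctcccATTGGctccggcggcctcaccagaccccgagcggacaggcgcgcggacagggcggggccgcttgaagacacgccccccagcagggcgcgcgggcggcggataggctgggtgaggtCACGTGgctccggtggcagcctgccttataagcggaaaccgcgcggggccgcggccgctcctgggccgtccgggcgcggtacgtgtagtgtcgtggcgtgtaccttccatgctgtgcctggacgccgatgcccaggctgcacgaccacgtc
Idi1: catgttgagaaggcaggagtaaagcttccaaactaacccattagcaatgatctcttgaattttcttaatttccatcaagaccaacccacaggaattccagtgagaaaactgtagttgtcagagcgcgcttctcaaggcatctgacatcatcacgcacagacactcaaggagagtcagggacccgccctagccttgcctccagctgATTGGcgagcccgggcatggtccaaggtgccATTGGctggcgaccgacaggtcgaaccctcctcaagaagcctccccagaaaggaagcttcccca
Hmgcs1: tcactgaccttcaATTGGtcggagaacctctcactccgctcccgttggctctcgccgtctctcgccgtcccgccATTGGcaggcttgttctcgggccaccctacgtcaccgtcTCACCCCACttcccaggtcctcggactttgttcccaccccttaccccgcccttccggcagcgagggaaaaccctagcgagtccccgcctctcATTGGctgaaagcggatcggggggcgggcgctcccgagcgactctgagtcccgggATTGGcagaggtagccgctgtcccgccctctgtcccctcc

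The sterol response element was found in 1 of the 5 promoters, that of Hmgcs1, upstream of the start site. It occurred in 408 of 32851 promoters of the same length (1.24%). The E box was found in 1 of the 5, that of Insig1, against 7.15% of all promoters. An NF-Y box was found in 5 of 5, against 37.4% of all promoters, with 4 matches in Hmgcs1, 2 in Idi1 and 1 each in Insig1, Lss and Srebf2. Hmgcs1 held both the sterol response element and an NF-Y box, as 0.441% of all promoters did. Of the other genes of the pathway, 14 of 16 had a promoter in the table, of which 0 held the sterol response element, 3 the E box and 13 an NF-Y box. A match describes letters, and no match says only that these letters are not in this window.

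Cells of experiment 1 were the deepest, with a median total of 417105 expected counts (100908 to 5828103), and those of experiment 5 the shallowest, with 155485 (1300 to 290570). Experiment 3 had a median of 208013 (2156 to 443196) and experiment 4 of 292109 (10662 to 557857). Counts were summed over the cells of each group, and levels are given in CPM, the counts of a gene per 1000000 counts of such a sum. A level is thus a share of the summed counts and not an amount per cell. Cells with larger totals weigh more in it. Intervals of counts and shares are 95% exact and cover counting error only. The cells carried the B cell and germinal center markers: the 5 germinal center genes summed to between 1233 and 2692 CPM in the zone sums of experiments 3 and 4. The DZ list was higher in the DZ, at 1805 to 3301 CPM, than in the LZ, at 550.3 to 1492 CPM. The 5 stromal genes were at 0 in all 14 of these sums. The 7 myeloid genes summed to 0.94 to 24.1 CPM in the DZ and 0.0 to 33.3 CPM in the LZ. Of these, Csf1r and Cd68 had reads, while Lyz2, C1qa, C1qb, Itgam and Adgre1 were at 0 in all 14 sums. Experiment served as block, since no animals were named. In each fit, sums of several times, zones or phases of 1 experiment counted as separate values. These came from experiments 3 and 4 for the zone pairs and from experiments 1, 3 and 4 otherwise. The p-values measure the spread between such sums, which may be technical, and not a spread between animals.

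Detection of the members in single cells was sparse. In the Dec+ LZ cells of experiment 1 at 12 h (70 in G1, 73 in S and 23 in G2M), Srebf2 had reads in 88.6% of cells (interval 82.7 to 93) and Lss, the enzyme that folds the squalene epoxide into lanosterol, in 46 cells (27.7%, 21.1 to 35.2). In the DZ cells of experiment 5, Srebf2 had reads in 45.7% of cells (39.4 to 52.2) and Lss in 8 cells (3.27%, 1.42 to 6.33). The order did not follow depth for every gene, since Insig1 had reads in 42.2% of these cells of experiment 1, the deepest, and in 44.5%, 64.6% and 30.2% of the DZ cells of experiments 3, 4 and 5. At least 1 of the 8 genes had reads in 98.2% of the cells of experiment 1 and in 77.6% of the DZ cells of experiment 5.

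The clearest pattern of the sterol genes went with cell cycle phase, as assigned to each cell by the authors from cell cycle genes. Idi1 and Insig1 were higher in G2M cells than in G1 cells, by 2.28-fold and 2.32-fold, and the fitted difference was above 0 for all 8 genes. In S cells only Idi1 passed the test, at 2.44-fold over G1. Counts of Dec+ cells were summed by experiment, zone and phase, over all times. This gave 6 sums for G2M, 6 for S and 5 for G1, since the 4 G1 cells of the DZ in experiment 1 were too few. The 8 genes together took 778.9 to 2118 CPM (median 1146) in G2M sums, 645.9 to 1245 CPM (median 1015) in S sums and 376.9 to 1423 CPM (median 869.0) in G1 sums.

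Idi1, the isomerase that makes dimethylallyl diphosphate, had a lowest level of 50.6, a median of 158.6 and a highest of 355.0 CPM in the 6 G2M sums. In the G1 sums it had 19.4 and 72.3 CPM in the DZ of experiments 3 and 4, and 147.98, 29.8 and 164.6 CPM in the LZ of experiments 1, 3 and 4. The groups overlapped, with experiment 3 low and experiments 1 and 4 higher at every phase, while within an experiment and zone G2M was above G1 in 5 of 5 pairs, by 0.92 to 1.34 on the log2 scale. The fitted log2 difference was 1.19 ± 0.26 (SE; edgeR quasi-likelihood, adjusted p = 0.0132). In S sums Idi1 had 57.01 to 330.6 CPM (median 169.98), above G1 in 4 of 5 pairs. The exception was the LZ of experiment 1, with 128.6 CPM in S against 147.98 CPM in G1, and the fitted difference of S was 1.29 ± 0.26 (edgeR, adjusted p = 0.00773).

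Insig1, the sterol-sensing anchor of SCAP, had a lowest level of 77.4, a median of 168.8 and a highest of 271.2 CPM in the G2M sums. In the G1 sums it had 25.2 and 109.2 CPM in the DZ of experiments 3 and 4, and 129.9, 36.9 and 129.3 CPM in the LZ of experiments 1, 3 and 4. These ranges overlapped too, and within an experiment and zone G2M was above G1 in 5 of 5 pairs, by 0.89 to 2.0 on the log2 scale. The fitted log2 difference was 1.22 ± 0.28 (edgeR, adjusted p = 0.0184). Unlike Idi1, Insig1 had a fitted S difference that did not pass, 0.25 ± 0.27 (edgeR, adjusted p = 0.742), with 57.01 to 124.9 CPM in the S sums. The difference between the 2 genes was not tested.

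**Figure D1:**
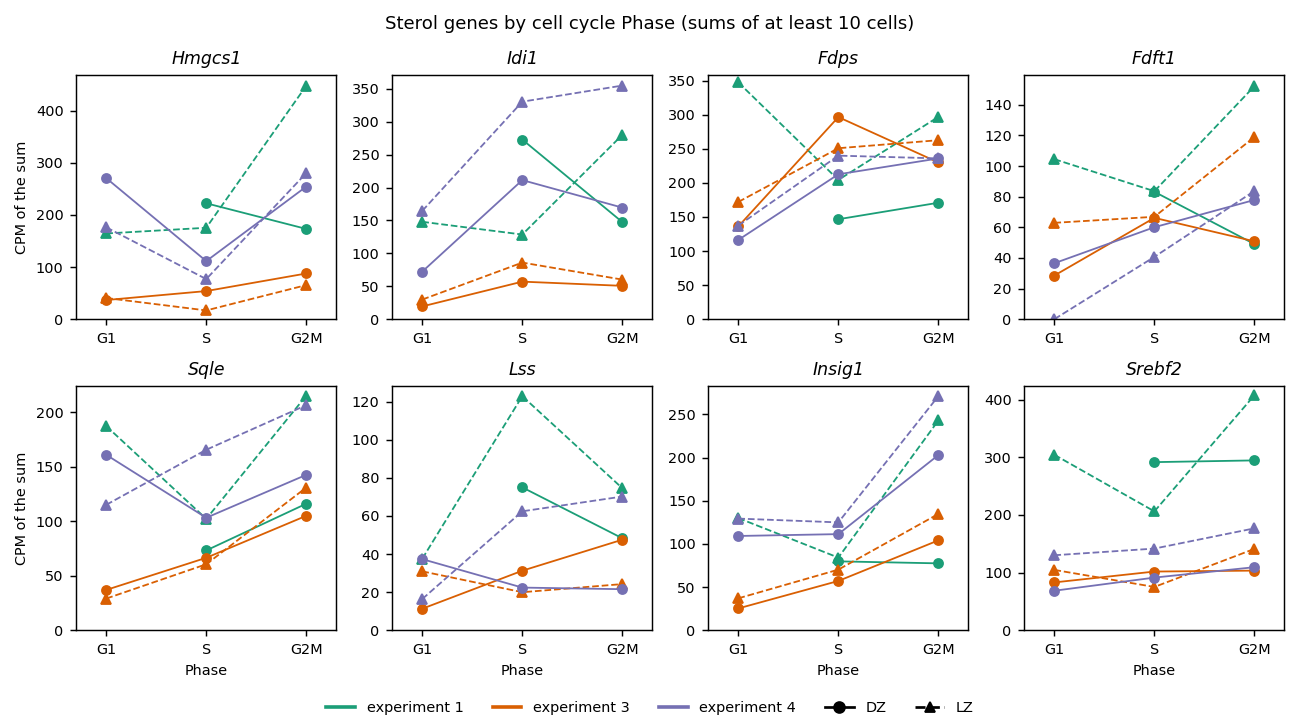
Level of each of the 8 sterol genes (y axis, CPM of summed counts, linear scale from 0) in G1, S and G2M sums of at least 10 cells (x axis). A color is 1 experiment, and solid lines with circles are the DZ, dashed lines with triangles the LZ. For Idi1 and Insig1 the G2M end lies above the G1 end on all 5 lines that have a G1 sum, and for Idi1 experiment 3 lies below experiments 1 and 4.

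In all, 2 of 8 members passed the test as higher in G2M and 0 as lower, where 387 of 11066 genes (3.5%) passed as higher and 1.28% as lower, 4.78% together. In S, 1 of 8 passed as higher and 0 as lower, where 380 genes (3.43%) passed as higher and 1.44% as lower, 4.87% together. The median fitted log2 difference over the 8 genes was 0.74 in G2M, against -0.03 over all genes tested, and 0.33 in S, against 0.01. DESeq2 called 2 members in G2M, where it called 10.7% of genes, and 1 in S, where it called 10.3%. These were the same genes in each case, with adjusted p = 0.00026 for Idi1 and 0.000245 for Insig1 in G2M.

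The 6 other members did not pass in G2M after adjustment. Srebf2 itself, the master regulator, had a fitted log2 difference of 0.52 ± 0.21 (edgeR, adjusted p = 0.216) and was above G1 in 5 of 5 pairs, by 0.31 to 0.67. Hmgcs1, which makes HMG-CoA, had 0.62 ± 0.28 in G2M and -0.55 ± 0.29 in S. Its G2M level of 65.4 to 448.1 CPM was above G1 in 4 of 5 pairs, while in S it was above G1 in 2 of 5. Fdps, the farnesyl diphosphate synthase, had 0.55 ± 0.26, Sqle, the squalene epoxidase and a rate-limiting step, had 0.73 ± 0.33, and Lss had 0.75 ± 0.46. Fdft1, the squalene synthase, had 1.03 ± 0.75 and was listed at 0 in the 29 G1 cells of the LZ in experiment 4, where 3 counts would be 0.387 CPM. Before adjustment, 6 of the 8 genes were under p = 0.05 in G2M, as 15.9% of all genes were, and 1 in S, as 16.2% were.

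The G2M calls of Idi1 and Insig1 were lost without experiment 3 or experiment 4, with larger sums only and with no block. The S call of Idi1 was lost without experiment 3 or experiment 4 and with no block, and was kept with sums of at least 20 cells (1.16, edgeR, adjusted p = 0.041). With sums of at least 20 cells, Idi1 had 1.3 in G2M (edgeR, adjusted p = 0.0768) and Insig1 1.29 (0.128). With no block for experiment they had 1.34 (0.374) and 1.10 (0.274), and Idi1 had 1.36 in S (0.378). Without experiment 3, Idi1 had 1.23 in G2M (edgeR, adjusted p = 0.254) and Insig1 0.81 (0.574), and without experiment 4 they had 1.13 (0.376) and 1.45 (0.249). The S difference of Idi1 was 1.23 without experiment 3 (adjusted p = 0.273) and 1.23 without experiment 4 (0.34), and without experiment 1 Fdps passed in both phases, at 0.86 in G2M (0.00838) and 0.87 in S (0.00785). A single cell held 9.18% to 45.4% of the Idi1 reads of a G2M sum and 14.5% to 28.5% of those of a G1 sum. Median totals per cell ran from 203026 to 541241 over the G2M sums and from 189806 to 380111 over the G1 sums, and the part of depth in the difference was not tested. The light zone list moved with phase as well, at 252.9 to 5148 CPM in G2M and 1562 to 6009 CPM in G1. The plasma cell list, at 607.5 to 2064 CPM in G2M and 786.6 to 3876 CPM in G1, did likewise, and the B cell list stood at 3741 to 5324 CPM in G2M and 5659 to 9996 CPM in G1. The part of these lists was not tested. Phase sums pooled all times, and the phases differed in their times. In the DZ of experiment 3, 6 of 43 cells at 12 h and 30 of 73 at 46 h were in G2M. In G1 were 26 of 43 and 20 of 73. The part of time in the phase differences was not tested.

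The phase difference was not shown to differ between zones. For G2M over G1, the DZ minus LZ difference of that contrast ran from -0.67 for Hmgcs1 to 0.53 for Fdps, and 0 of 8 members passed, where 2 of 11066 genes (0.0181%) did in edgeR. Before adjustment 0 members were under p = 0.05, against 4.16% of genes, and DESeq2 called 0 members, against 1.47%. For S over G1 the difference ran from -0.57 for Lss to 0.90 for Idi1, and 0 of 8 passed, where 1 gene (0.00904%) did in edgeR. Before adjustment 0 members were under p = 0.05, against 3.11% of genes, and DESeq2 called 0 members, against 0.94%.

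**Figure D2:**
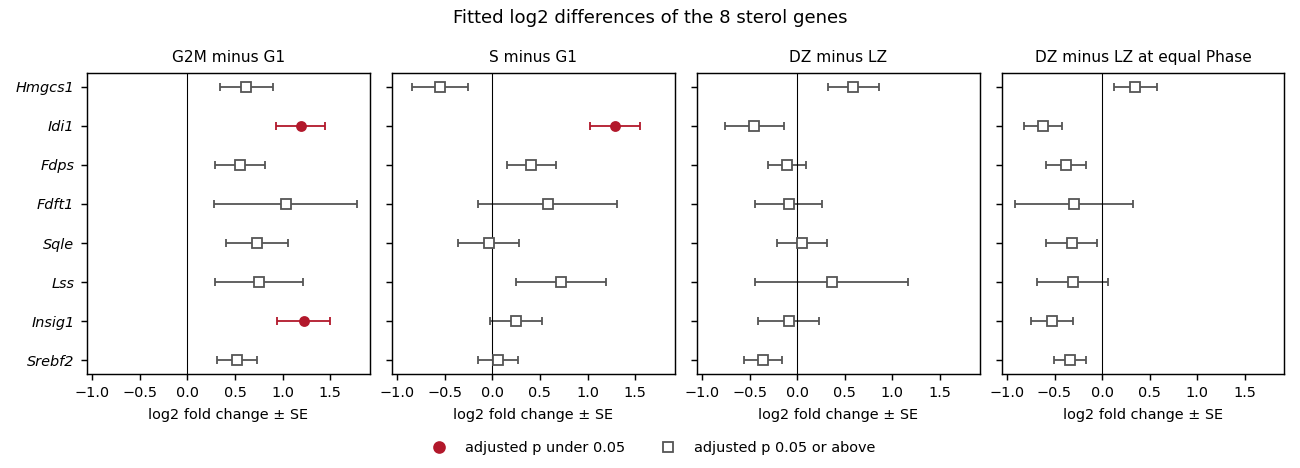
Fitted log2 difference with its SE (x axis) of the 8 sterol genes (y axis) for G2M minus G1, S minus G1, DZ minus LZ and DZ minus LZ at equal phase, from edgeR. Filled red circles had an adjusted p under 0.05. All 8 G2M values lie right of 0 and only those of Idi1 and Insig1 passed, as did the S value of Idi1.

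The rest of the sterol pathway had 12 of its 16 tested genes above 0 in G2M, with a median of 0.51, and 1 of 16 passed. This was Lbr, a lamin receptor of the inner nuclear membrane with sterol reductase activity. It had 377.8 to 967.4 CPM in G2M and 155.5 to 533.3 CPM in G1, with a log2 difference of 1.15 ± 0.21 (edgeR, adjusted p = 0.00389). Phase was itself set from the expression of cell cycle genes. Whether Lbr was among them was not checked, so its difference cannot be told apart from the phase label.

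Of the storage, efflux and oxysterol list, Apoe and Abcg1 passed as lower in G2M, 2 of the 6 genes tested among 10, where 1.28% of all genes passed as lower. The fitted difference was above 0 for 1 of the 6, Nr1h2 at 0.05, and the median was -1.83, against -0.03 over all genes. Apoe, the apolipoprotein that carries cholesterol away from cells, had 105.7 to 764.6 CPM in G2M and 566.5 to 2717 CPM in G1, a log2 difference of -1.91 ± 0.33 (edgeR, adjusted p = 0.00229). Abcg1, a sterol exporter, had at most 3.79 CPM in a G2M sum, and in G1 sums 15 and 110.03 CPM in the DZ of experiments 3 and 4 and 0.45, 59.2 and 202.6 CPM in the LZ of experiments 1, 3 and 4. In the LZ of experiment 1 it was near 0 in both phases, at 0.67 CPM in G2M and 0.45 CPM in G1. Its fitted difference was -5.07 ± 1.33 (edgeR, adjusted p = 0.0387) and did not pass without experiment 3 (-5.08, adjusted p = 0.458) or without experiment 4 (-3.63, 0.76), and that of Apoe did not pass without experiment 3 (-1.65, 0.15), nor did that of Lbr (1.17, 0.234). With sums of at least 20 cells the adjusted p was 0.0557 for Lbr and 0.28 for Abcg1, and with no block for experiment it was 0.172 for Lbr. In S, Apoe was lower, at -1.22 ± 0.34 (adjusted p = 0.0498). So was Npc2, the lysosomal carrier of cholesterol, with 22.1 to 71.3 CPM in S and 79.4 to 124.1 CPM in G1, at -1.20 ± 0.31 (edgeR, adjusted p = 0.0323). Both S calls were lost without experiment 3 (adjusted p = 0.615 for Apoe and 0.527 for Npc2) and without experiment 4 (0.376 and 0.392), and that of Npc2 also without experiment 1 (0.0517). With sums of at least 20 cells they were lost too (0.0794 and 0.0712), as with no block (0.121 and 0.122), and that of Apoe with no filter on low counts (0.0603).

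The remaining lists held no gene that passed in G2M. Sensing and uptake genes were above 0 in 3 of 12 tested (median -0.44), fatty acid synthesis genes in 6 of 10 (median 0.42) and genes that use prenyl groups in 6 of 9 (median 0.4). In S, the rest of the sterol pathway was above 0 in 6 of 16 (median -0.13), sensing and uptake in 6 of 12 (-0.16), storage and efflux in 0 of 6 (-1.13), fatty acid synthesis in 7 of 10 (0.46) and prenyl use in 7 of 9 (0.74).

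Between the zones, no sterol gene passed the test. In experiments 3 and 4 the DZ was set against the LZ of the same experiment and time, in 7 pairs, and 0 of 8 members passed, where 30 of 9302 genes (0.323%) did. DESeq2 called 0 members, against 5.07% of genes, and 1 member was under p = 0.05 before adjustment, against 9.41% of genes. The 8 genes together took 479.9 to 1210 CPM (median 806.9) in the DZ and 548.2 to 1376 CPM (median 922.0) in the LZ.

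Hmgcs1 was the gene under p = 0.05 before adjustment. It had 48.4 to 278.1 CPM (median 74.2) in the DZ and 15.7 to 192.5 CPM (median 51.6) in the LZ. The ranges overlapped. The DZ was above the LZ in 7 of 7 pairs, by log2 differences of 0.61, 0.32, 2.17 and 0.12 at 12, 30, 46 and 60 h of experiment 3 and of 0.53, 0.44 and 0.0 at 12, 30 and 46 h of experiment 4, where the last pair had 135.05 CPM in the DZ and 134.8 CPM in the LZ. The fitted log2 difference was 0.59 ± 0.27 (edgeR, p = 0.0489 unadjusted, adjusted p = 0.528). Srebf2 leaned the other way: it had 55.6 to 109.1 CPM (median 92.4) in the DZ and 78.8 to 180.7 CPM (median 107.2) in the LZ, was above the LZ in 2 of 7 pairs, by at most 0.04 on the log2 scale, and had a fitted difference of -0.36 ± 0.20 (edgeR, adjusted p = 0.624).

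The other 6 genes had fitted zone differences between -0.45 ± 0.31 for Idi1 and 0.36 ± 0.80 for Lss. The 2 experiments did not share a direction for some of them. Fdft1 was lower in the DZ in 4 of 4 pairs of experiment 3 (median log2 difference -0.79) and higher in 3 of 3 pairs of experiment 4 (median 0.78). Idi1 was above the LZ in 3 of 4 pairs of experiment 3 and in 0 of 3 of experiment 4, and its lowest value was at 12 h of experiment 3, with 18.04 CPM in the DZ and 79.1 CPM in the LZ.

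**Figure D3:**
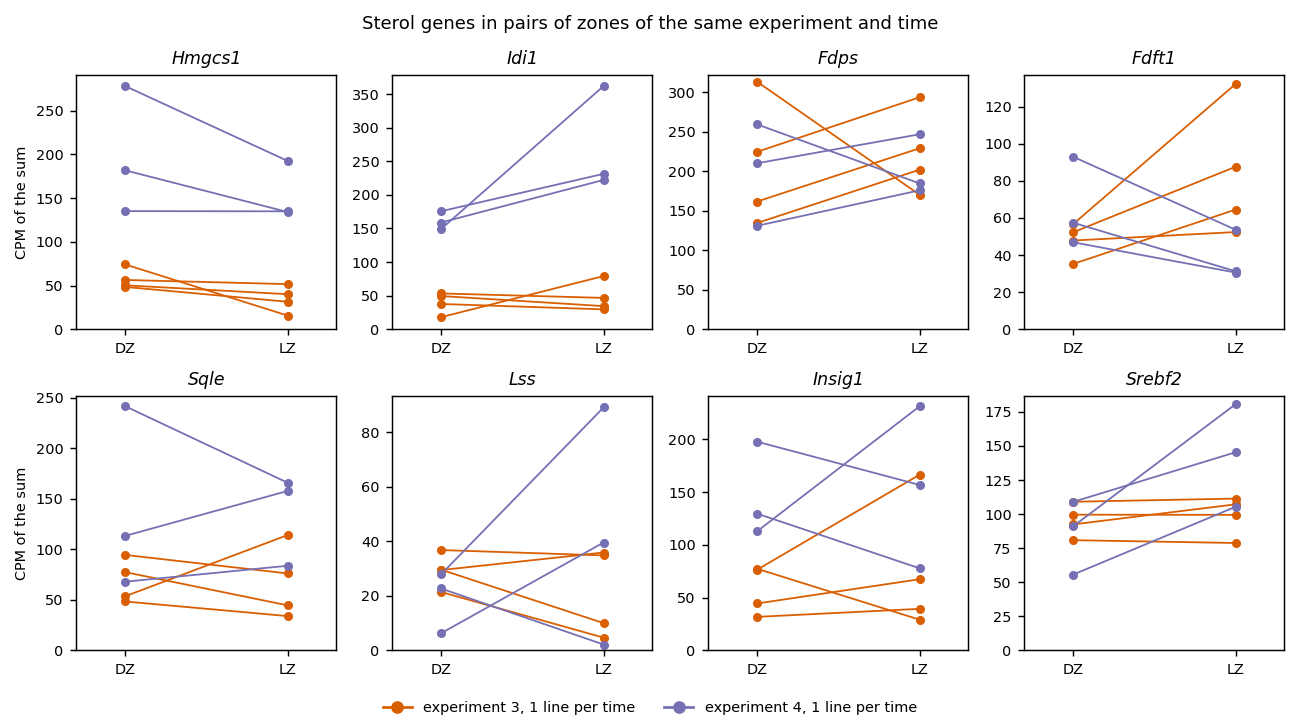
Level of each sterol gene (y axis, CPM of summed counts, linear scale from 0) in the DZ and the LZ (x axis), each line joining the sums of 1 experiment and time, colored by experiment. The DZ end of the line is higher in 7 of 7 pairs for Hmgcs1 and in 2 of 7 for Srebf2, counting any difference,, and the lines of the 2 experiments slope opposite ways for Fdft1.

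None of the 5 lists had a gene that passed between zones. The medians were 0.16 for the rest of the sterol pathway, 0.17 for sensing and uptake, 0.17 for storage and efflux, 0.68 for fatty acid synthesis and 0.03 for prenyl use, against 0.20 over all genes. The largest fitted values belonged to Npc1 (4.84 ± 1.57, adjusted p = 0.314 in edgeR), the lysosomal cholesterol transporter, Acss2 (3.76 ± 1.75, 0.538), an acetyl-CoA synthetase, and Tm7sf2 (2.74 ± 1.81, 0.684), a sterol reductase. DESeq2 called Npc1 (adjusted p = 0.00118) and Acss2 (0.0293). These genes were at 0 in some sums, so the fitted sizes depend on the prior count. The plasma cell list, at 1661 to 4351 CPM in the DZ and 802.5 to 4116 CPM in the LZ, and the T cell list, at 68.4 to 169.7 CPM in the DZ and 94.2 to 200.1 CPM in the LZ, stood beside these values, and their part was not tested.

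At equal phase, taken as the mean over G1, S and G2M, the DZ was again not shown to differ from the LZ in any member. Of the 8 genes, 1 was above 0 and 0 passed, where 2.23% of 11066 genes did, and DESeq2 called 0 members, against 8.3% of genes. The median was -0.33, against 0.07 over all genes. Idi1 had -0.62 ± 0.20 (edgeR, adjusted p = 0.144) and Insig1 -0.53 ± 0.22 (0.282), both under p = 0.05 before adjustment, as 14.2% of genes were. Hmgcs1 was the gene above 0, at 0.35 ± 0.23 (adjusted p = 0.548). In G2M alone, Idi1 had 147.6, 50.6 and 169.5 CPM in the DZ and 280.1, 60.1 and 355.0 CPM in the LZ of experiments 1, 3 and 4. Insig1 had 77.4 to 202.9 CPM in the DZ and 134.7 to 271.2 CPM in the LZ of the same experiments. For both genes the DZ was the lower in each of the 3 experiments. Sums by phase were taken over all times. In experiment 1 the DZ cells were all of 30 h and the LZ cells all of 12 h, on other plates. Zone, time and plate cannot be told apart in that experiment. In the lists no gene passed, and the largest values were those of Abca1 (2.69 ± 1.65), a sterol exporter, Npc1 (2.40 ± 1.06) and Tm7sf2 (1.56 ± 1.40), of which DESeq2 called Npc1 (adjusted p = 0.0347).

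Over time, no sterol gene passed the test in either zone. In the DZ, 0 of 8 members passed at 30, 46 or 60 h against 12 h, where 0 of 11662 genes (0.0%) did in edgeR in each of the 3. Before adjustment, 2.19%, 4.3% and 1.66% of genes were under p = 0.05 at 30, 46 and 60 h, with 0, 1 and 0 members among them. DESeq2 called 0.78%, 1.16% and 0.84% of genes, with 0, 1 and 0 members among them. The median of the 8 genes was -0.26 at 30 h, 0.04 at 46 h and 0.14 at 60 h. In the LZ, 0 of 8 passed at 30 h, where 0 genes (0.0%) passed in edgeR, 3.45% were under p = 0.05 before adjustment and DESeq2 called 1.01%. At 46 h 0 of 8 passed, where 55 genes (0.472%) did in edgeR, 11.5% were under p = 0.05 before adjustment and DESeq2 called 9.24%. At both times 0 members were under p = 0.05 before adjustment and DESeq2 called 0 members. The medians of the 8 genes in the LZ were -0.16 at 30 h and -0.13 at 46 h.

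Fdps was the member nearest to a call in the DZ. At 12, 30, 46 and 60 h it had 134.5, 161.6, 313.2 and 224.5 CPM in experiment 3 and 130.9, 210.1, 259.3 and 187.9 CPM in experiment 4. The 2 experiments were alike in level for this gene and both were highest at 46 h. The log2 difference of 46 h over 12 h was 1.20 ± 0.30, with p = 0.00132 unadjusted and adjusted p = 1.0 in edgeR, and adjusted p = 0.00238 in DESeq2. The 46 h cells of the DZ in experiment 3 had more G2M cells, 41.1% (interval 29.7 to 53.2), than those of 12 h, 14% (5.3 to 27.9). In experiment 4 the shares were nearer, 38.9% (25.9 to 53.1) at 46 h and 29.1% (17.6 to 42.9) at 12 h. The part of phase in the Fdps difference was not tested.

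The levels of Idi1 lay farther apart between experiments than between times. In the DZ at 12, 30, 46 and 60 h it had 18.04, 37.6, 49.4 and 53.3 CPM in experiment 3 and 149.1, 175.6, 158.8 and 152.4 CPM in experiment 4. In the LZ it had 79.1, 29.6, 34.4 and 46.7 CPM in experiment 3, and 361.8, 231.2 and 222.2 CPM at 12, 30 and 46 h in experiment 4, where the 5 cells of 60 h were too few. Experiment 4 was above experiment 3 at each time and in both zones. Sqle was the lowest member in the DZ contrasts, with -0.91 at 30 h, -0.54 at 46 h and -0.95 at 60 h. It had 77.5, 48.4, 94.5 and 53.5 CPM in experiment 3 and 241.9, 113.3, 67.97 and 98.2 CPM in experiment 4, so the first time was high in experiment 4 and not in experiment 3. The fitted highest values were 0.90 and 0.79 for Idi1 at 30 and 60 h. In the LZ the 8 genes spanned -1.25 for Lss to 0.28 for Fdps at 30 h and -1.52 for Lss to 0.26 for Insig1 at 46 h.

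**Figure D4:**
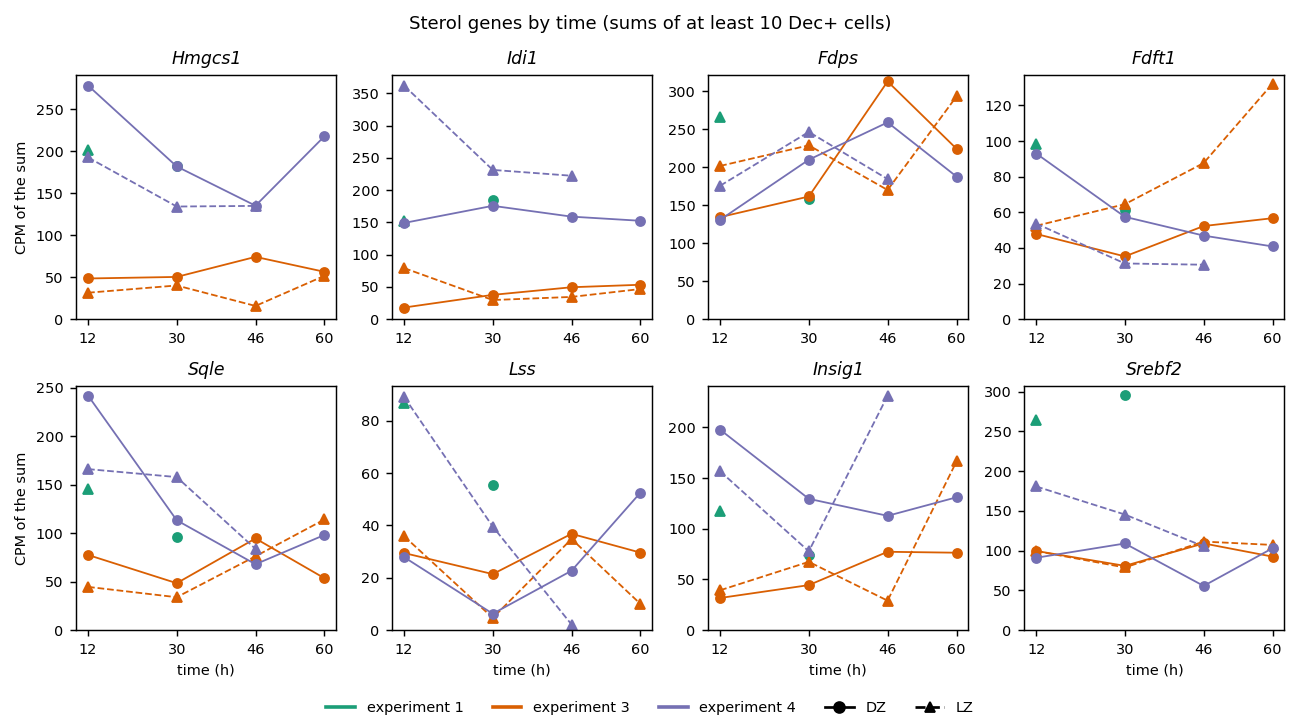
Level of each sterol gene (y axis, CPM of summed counts, linear scale from 0) at the labelled time (x axis, h). A color is 1 experiment, and solid lines with circles are the DZ, dashed lines with triangles the LZ. Experiment 4 lies above experiment 3 for Idi1 at every time in both zones, and Fdps in the DZ is highest at 46 h in both experiments.

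The DZ at 30 h was also set against the LZ at 12 h, a contrast held by all 3 experiments. Of the 8 genes, 1 was above 0 and 0 passed, where 4 of 11662 genes (0.0343%) did in edgeR. Before adjustment 0 members were under p = 0.05, against 5.52% of genes, and DESeq2 called 0 members, against 1.47%. Values ran from -1.58 for Lss to 0.21 for Hmgcs1 with a median of -0.27, against 0.01 over all genes. Lss had 55.4, 21.4 and 6.27 CPM in the DZ at 30 h and 86.9, 35.9 and 89.1 CPM in the LZ at 12 h of experiments 1, 3 and 4, lower in the DZ in 3 of 3. In the lists no gene passed, and the largest values were those of Ch25h (6.83 ± 4.40), the cholesterol 25-hydroxylase, Abca1 (6.18 ± 3.18) and Nr1h3 (-4.62 ± 3.74), a sterol-sensing nuclear receptor, of which DESeq2 called Abca1 (adjusted p = 0.033). Ch25h and Nr1h3 had reads in 1 of the 17 sums each, so their fitted sizes depend on the prior count.

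Dec+ and Dec- cells of the LZ at 12 h came from experiment 1 alone, so there is no replicate check, and plates are technical. The sterol genes lay close together in the 2 groups: 7 of 8 were lower in Dec+ cells and 0 of 8 differed by 2-fold, where 31.1% of the 6440 genes with at least 20 CPM did. The 8 genes together took 1332 CPM in Dec+ cells and 1629 CPM in the 80 Dec- cells. By plate the sums were 1373, 1300 and 1302 CPM in Dec+ cells and 1530, 1640 and 1769 CPM in Dec- cells. The Dec+ sums were the lower on each of the 3 plates.

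Idi1 had the widest gap, with 152.2 CPM (interval 150.1 to 154.3) in Dec+ cells and 250.7 CPM (246.4 to 255.1) in Dec- cells, a log2 ratio of -0.72 with 1 CPM added. Hmgcs1 had 201.4 CPM in Dec+ cells and 275.8 CPM in Dec- cells (-0.45), and Insig1 stood in Dec+ cells at 0.82 of its level in Dec- cells (-0.29). For these genes 1 cell weighed heavily. It held 6.2%, 10.6% and 7.92% of the reads of Idi1, Hmgcs1 and Insig1 in the Dec+ sum, and 32.5%, 40.7% and 46.2% in the Dec- sum. Fdps had 266.04 CPM in Dec+ cells and 273.2 CPM in Dec- cells (-0.04), and Lss had 86.9 CPM in Dec+ cells and 83.7 CPM in Dec- cells (0.05). The median log2 ratio of the 8 genes was -0.26, against 0.07 over all genes, and was 0.16 when each cell had equal weight, so its sign hung on the weighting.

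By phase the order of the Dec groups changed. The 8 genes together took 1423 CPM in Dec+ and 865.3 CPM in Dec- cells of G1, 1107 CPM in Dec+ and 2604 CPM in Dec- cells of S, and 2118 CPM in Dec+ and 2030 CPM in the 8 Dec- cells of G2M. In the storage and efflux list, 0 of 5 genes with at least 20 CPM were above 0, with a median of -1.35. Soat1, which esterifies cholesterol, had 75.9 CPM in Dec+ cells and 209.6 CPM in Dec- cells. Abcg1 had 10.1 CPM in Dec+ cells and 28.6 CPM in Dec- cells, and Apoe had 443.7 CPM in Dec+ cells and 1134 CPM in Dec- cells. The dark zone list stood at 529.3 CPM in Dec+ cells and 1168 CPM in Dec- cells and the plasma cell list at 622.7 CPM in Dec+ cells and 865.01 CPM in Dec- cells, and their part was not tested. In the rest of the sterol pathway, 7 of 15 genes were above 0 (median -0.14). Msmo1, a sterol methyl oxidase, had 139.9 CPM in Dec+ cells and 305.3 CPM in Dec- cells.

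In experiment 5 the same 4 plates held KO, TA and WT cells of both zones. Plates are technical and each genotype came from 1 experiment, so there is no replicate check and no test. Ccnd3, cyclin D3, the gene named on the plates, had 89.3 CPM in KO, 287.3 CPM in TA and 477.1 CPM in WT cells of the DZ, and 78.6 CPM in KO, 118.9 CPM in TA and 350.0 CPM in WT cells of the LZ. It was lowest in KO and highest in WT in both zones. The 8 sterol genes together took 364.8 CPM in KO, 508.6 CPM in TA and 407.96 CPM in WT cells of the DZ, and 496.01 CPM in KO, 699.2 CPM in TA and 690.4 CPM in WT cells of the LZ.

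In KO cells of the DZ, 2 of the 7 members with at least 20 CPM differed from WT by 2-fold, where 27.5% of genes did. Hmgcs1 had 45.7 CPM (interval 41.5 to 50.2) in KO cells and 103.1 CPM (97.3 to 109.1) in WT cells. By plate it had 71.9, 77.96, 18.5 and 33.6 CPM in KO cells and 96.3, 141.03, 63.9 and 106.05 CPM in WT cells, so KO was the lower on each of the 4 plates. Fdft1 had 31.3 CPM (27.8 to 35.1) in KO cells and 6.71 CPM (5.31 to 8.38) in WT cells, and KO was the higher on 3 of 4 plates. It had reads in 25 DZ cells of experiment 5 (10.2%). A single cell held 27.8% of its reads in KO cells and 26.9% of its 78 counts in WT cells. The median log2 ratio of the 8 genes was 0.06, against -0.16 over all genes, and the plate medians ran from -1.12 to 0.69.

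In TA cells of the DZ, 3 of 7 members differed from WT by 2-fold, all of them higher, where 18.4% of genes did in either direction and 8.12% were higher. Idi1 had 96.6 CPM (92.1 to 101.1) in TA cells and 45.6 CPM (41.8 to 49.7) in WT cells. Sqle had 75.1 CPM in TA cells and 32.3 CPM in WT cells, and Fdft1 had 31.95 CPM in TA cells and 6.71 CPM in WT cells. Fdft1 was higher in TA on 4 of 4 plates, and Idi1 and Sqle each on 3 of 4. By plate, Sqle had 62.4, 52.3, 183.03 and 26.2 CPM in TA cells and 18.8, 0.0, 70.9 and 38.5 CPM in WT cells. A single cell held 25.4% of the Sqle reads and 26.9% of the Fdft1 reads in TA cells, and 23.2% and 26.9% in WT cells. Fdps and Hmgcs1 were level, with 70.6 and 102.8 CPM in TA cells and 71.1 and 103.1 CPM in WT cells. The median log2 ratio was 0.09, against -0.03 over all genes, with plate medians from -0.39 to 1.2.

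In the LZ, 3 of 7 members differed by 2-fold in KO cells, where 34.8% of genes did, and 2 of 7 in TA cells, where 42.6% did. Insig1 had 39.7 CPM in KO, 45.4 CPM in TA and 114.5 CPM in WT cells. Sqle had 38.6 CPM in KO, 17.5 CPM in TA and 93.01 CPM in WT cells, and Fdps had 44.2 CPM in KO, 107.5 CPM in TA and 111.8 CPM in WT cells. For Insig1 and Sqle WT was the highest. The WT sum leaned on 1 plate, which had 1538 CPM over the 8 genes, against 387.3 to 471.3 CPM on the other 3 plates, and the TA sum held 22 cells. That plate had 330.1 CPM of Insig1 and 69.2 CPM of Sqle, while plate 4 had 183.1 CPM of Sqle. A single cell held 55.4% of the Insig1 reads in WT cells and 100% of the 64 Sqle counts in TA cells. The median log2 ratios were -0.28 for KO and 0.04 for TA, with plate medians from -1.22 to 1.67 and from -4.89 to 2.07.

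**Figure D5:**
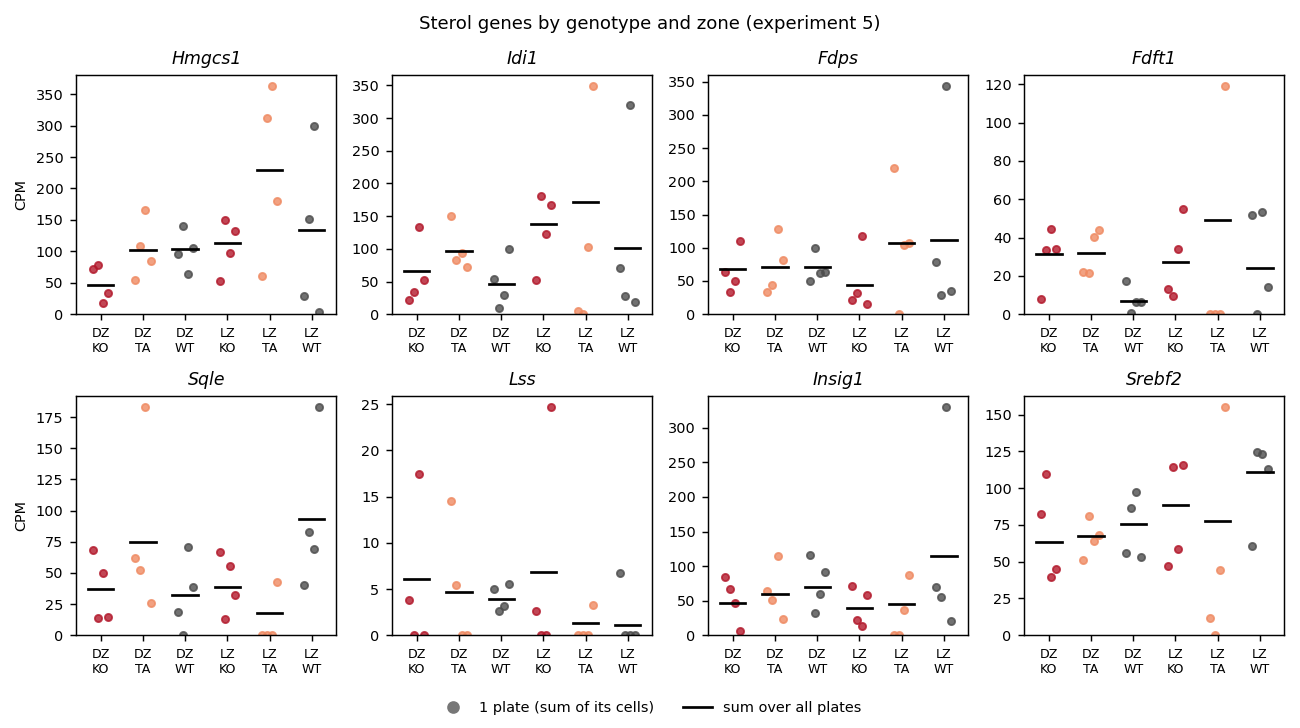
Level of each sterol gene (y axis, CPM, linear scale from 0) in KO, TA and WT cells of the DZ and the LZ of experiment 5 (x axis). Points are plates, each the sum of its cells, and bars are the sum over all plates. Plates of 1 genotype spread widely, and Hmgcs1 in the DZ is lower in KO than in WT on each plate.

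The phase pattern was also read in the cells of experiment 5, first of the DZ, which did not enter the fit. The 8 genes together took 364.8 CPM in G2M (12 cells) and 366.1 CPM in G1 (48 cells) of KO, 629.9 CPM in G2M (32 cells) and 257.8 CPM in G1 (23 cells) of TA, and 692.8 CPM in G2M (24 cells) and 242.2 CPM in G1 (38 cells) of WT. Insig1 had 33.5 CPM in G2M and 51.6 CPM in G1 of KO, 76.3 CPM in G2M and 28.8 CPM in G1 of TA, and 153.7 CPM in G2M and 15.3 CPM in G1 of WT. Idi1 had 52.9 CPM in G2M and 72.7 CPM in G1 of KO, 99.2 CPM in G2M and 35.1 CPM in G1 of TA, and 51.04 CPM in G2M and 9.09 CPM in G1 of WT. In G2M of the DZ both genes were lower in KO and higher in TA and WT than in G1, with no test, and the difference between genotypes was not tested. In the LZ, G2M held 7 KO, 2 TA and 8 WT cells. There the 8 genes together took 304.1 CPM in G2M and 517.6 CPM in G1 of KO, 1200 CPM in G2M and 348.1 CPM in G1 of TA, and 839.7 CPM in G2M and 995.8 CPM in G1 of WT. Idi1 had 56.3 CPM in G2M and 143.7 CPM in G1 of KO, 296.02 CPM in G2M and 1.63 CPM in G1 of TA, and 49.5 CPM in G2M and 224.3 CPM in G1 of WT. Insig1 had 30.9 CPM in G2M and 45.04 CPM in G1 of KO, 83.6 CPM in G2M and 6.53 CPM in G1 of TA, and 126.6 CPM in G2M of WT, below its level in G1 of WT. Both genes were lower in G2M than in G1 in KO and WT cells of the LZ and higher in TA cells. In G1 were 77.4% (interval 65 to 87.1) of KO, 22.8% (15 to 32.2) of TA and 46.3% (35.3 to 57.7) of WT cells of the DZ, and the plasma cell list stood at 5585 CPM in KO, 2015 CPM in TA and 2566 CPM in WT cells. Their part in the genotype values was not tested.

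In the lists of experiment 5, Abcg1 had 319.8 CPM in KO and 24.9 CPM in WT cells of the LZ, and 94.6 CPM in KO, 2.85 CPM in TA and 49.1 CPM in WT cells of the DZ. Npc2 had 222.3 CPM in KO and 39.3 CPM in WT cells of the LZ, and 110.6 CPM in KO and 23.7 CPM in WT cells of the DZ. KO was above WT for both genes in both zones. Stard4, a cholesterol carrier within the cell, had 67.3 CPM in KO and 12.2 CPM in WT cells of the DZ. The rest of the sterol pathway was above 0 in 4 of 12 genes in KO cells of the DZ (median -0.41) and in 4 of 10 in TA cells of the DZ (median -0.17).

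Over the 17 sums of zone and time, centred within each experiment, the gene most like the mean of the 8 was Tbl1x (Pearson r = 0.86), followed by Rasgrp1 (0.82), Msmo1 (0.80) and Lig3 (0.80), among 6177 genes of at least 20 CPM. Utp14a and Thoc5 (0.79 each), Ccdc43 (0.78) and Epb41l2 (0.77) came next. The least like were Bod1l (-0.74), Rgs14 (-0.73) and Thap4 (-0.73), and the median gene had 0.10. Msmo1 is the only other enzyme of the sterol pathway among the 8 genes most like it. The members themselves were loosely tied: each had r between 0.14 (Lss) and 0.59 (Sqle) with the mean of the other 7. The medians were 0.33 over 12 genes of the rest of the pathway and 0.41 over 6 fatty acid synthesis genes. Sums of 1 experiment share library batches and depth, so these values are a description.

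Across single cells the 8 genes were weakly correlated. The median Spearman rho over the 28 pairs of genes was 0.19 in the Dec+ LZ cells of experiment 1 (12 h) and 0.23, 0.23 and 0.11 in the DZ cells of experiments 3, 4 and 5. The highest pairs were Sqle with Insig1 (0.33), Fdps with Insig1 (0.34), Idi1 with Insig1 (0.41) and Hmgcs1 with Sqle (0.29). Cells of 1 library share depth and detection, and values of this size in sparse counts are no finding.

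The genes lay at chr13:119690379-119708260 (Hmgcs1), chr13:8885501-8892451 (Idi1), chr3:89093588-89101959 (Fdps), chr14:63145150-63179578 (Fdft1), chr15:59315077-59331192 (Sqle), chr10:76531588-76557138 (Lss), chr5:28071363-28078662 (Insig1) and chr15:82147181-82205379 (Srebf2) in GENCODE M21 (GRCm38). The libraries do not mark strand, so reads cannot be told apart from those of an overlapping gene. Fdft1 overlaps Ctsb on the opposite strand, and Srebf2 holds Mir33. Antisense genes overlap Hmgcs1 and Lss, an unclassified gene Idi1, and same-strand genes Fdps. Sqle and Insig1 overlap no annotated gene.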

How the data were processed

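Single germinal center B cells were sequenced by SmartSeq2 in 5 experiments. The deposited tables hold expected counts per gene and cell, not normalized. Per the submitters' processing notes STAR 2.6, RSEM 1.3.1, Seurat 3.1.4 and mm10 were used, without stated roles. The deposited cell tables also give the percent of mitochondrial reads and the phase and zone of each cell, set by the authors. Experiment 2 was not used, since its columns could not be matched to single samples. Wells labelled PB were left out too. Over both combined tables, 255 columns of counts were not used.

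The members and gene lists were chosen with earlier results of these data known. Cells were summed by experiment, zone and time or phase (at least 10 cells), and sums were rounded. Genes with low counts were dropped by filterByExpr, and TMM gave the scaling. Tests were edgeR 4.0.16 quasi-likelihood (R 4.3.3, limma 3.58.1), with experiment, or experiment and time for zones, as block. p-values were adjusted over all genes (Benjamini-Hochberg, threshold 0.05). The SE given with an edgeR difference was worked back from its test, as the size of the difference divided by the square root of the F value. DESeq2 1.42.0 was an alternative. The fits were tested on simulated data. Dec and genotype comparisons, with 1 experiment each, have CPM of summed counts, log2 ratios with 1 CPM added and no test. Named besides the 8 members were list genes past the threshold or, for the zones, for 30 h DZ against 12 h LZ and for untested comparisons, the largest changes where none passed. Some list genes are not reported here. Likeness ranked genes of at least 20 CPM by Pearson r with the members' mean. The contrasts of phase between zones were added after seeing the data. Sums are paired by experiment, as the labels name it. Replicate numbers within groups only name wells.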

Additional observations from a re-analysis of the deposited data

Results flagged for a closer look

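Of 48 groups of sums checked, 6 held a sum far from the others, where about 1 in 20 is the rate for independent, normally spread values. Levels in CPM need not be spread so, and the genes share sums, so the 6 are not read as an excess. For Hmgcs1 the DZ minus LZ difference at 46 h of experiment 3 was 2.17 on the log2 scale, with the nearest of the other pairs at 0.61 and the lowest at 0. In the G1 sums, the LZ sum of experiment 1 had 347.4 CPM of Fdps, against 116.3 to 172.02 CPM in the other sums, and 304.5 CPM of Srebf2, with the next at 130.1 and the lowest at 68.4 CPM. At 12 h of experiment 4, the DZ sum had 93 CPM of Fdft1 (next 57.5, lowest 35.2 CPM) and 241.9 CPM of Sqle (next 113.3, lowest 48.4 CPM), and the LZ sum had 89.1 CPM of Lss (next 39.6, lowest 2.14 CPM).

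For 3 contrasts, every pair of 1 time moved one way and every pair of another time the opposite way, and these differences were not tested. Fdps had a mean DZ minus LZ difference of 0.69 on the log2 scale at 46 h, against -0.50 at 12 h and -0.36 at 30 h. Lss had 1.5 at 46 h, against -0.96 at 12 h. Its pairs at 46 h were 0.08 in experiment 3 and 2.91 in experiment 4, where the LZ sum held 11 counts in 17 cells. Each time held 2 pairs, so splits of this kind can arise by chance.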

How the results depend on the processing

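For genes named in the text, settings other than leaving out an experiment lost the call in 13 of 360 values, gave one in 5 and turned the direction in 5, and the rest kept both. Leaving out each experiment in turn lost the call in 15 values, gave one in 2 and turned the direction in 17. Depth limits the low genes Lss and Fdft1.

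The percent of genes called moved with the tool. DESeq2 called 5.07% between zones (0.323% in edgeR), 1.47% for 30 h DZ against 12 h LZ (0.0343%), 0.78%, 1.16% and 0.84% for 30, 46 and 60 h DZ against 12 h (0.0% each), 1.01% and 9.24% for 30 and 46 h LZ (0.0% and 0.472%), 10.3% for S (4.87%), 10.7% for G2M (4.78%) and 8.3% for zones at equal phase (2.23%), and 1 member, Fdps, at 46 h in the DZ (0 in edgeR). With at least 20 cells a sum, 0.0317% were called between zones, 1.83% for G2M with 0 members, and 0.678% for zones at equal phase. Without cells that both zone calls claimed, 0.716% were called between zones, and with sums over all times 0.

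Sums are paired by experiment, and the block was part of each fit. With no replicate block, 0.0108% of genes were called between zones, 0 for 30 h DZ against 12 h LZ, 1.85% for S with 0 members, 2.31% for G2M with 0 members and 0.551% for zones at equal phase. Among the named genes, the calls of Idi1, Insig1 and Lbr in G2M and of Idi1, Npc2 and Apoe in S were lost, and no other call of a named gene changed.

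Leaving out 1 experiment gave 0% of genes between zones, 0% to 0.0176% for 30 h DZ against 12 h LZ, 0% to 0.362% for 46 h LZ, 0.776% to 7.16% for S (0 to 2 members), 0.896% to 6.7% for G2M (0 to 3 members) and 0.0512% to 1.72% for zones at equal phase.

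Direction turned for the zone difference of Lss (0.36), at -0.20 with 20 cells, -0.23 with no replicate block and -0.35 over all times, for that of Sqle (0.05), at -0.06 over all times, and for S over G1 of Sqle (-0.04), at 0.09 with 20 cells. With 1 experiment left out, values that turned ran, between zones, from -0.76 to 0.75 for Fdft1, -0.09 to 0.13 for Sqle, -0.77 to 0.85 for Lss and -0.21 to 0.01 for Insig1. For 30 h DZ against 12 h LZ they ran from -0.04 to 0.38 for Hmgcs1, -0.41 to 0.01 for Fdps and -0.51 to 0.05 for Srebf2, for 46 h DZ from -1.64 to 0.30 for Sqle, and for 46 h LZ from -4.57 to 0.03 for Lss and -0.61 to 0.69 for Insig1. For S they ran from -0.49 to 0.44 for Sqle, -0.15 to 0.52 for Insig1 and -0.16 to 0.26 for Srebf2, for zones at equal phase from -0.87 to 0.12 for Fdft1, and for S over G1 compared between zones from -2.19 to 0.90 for Lss. The cause was not tested.

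The untested Dec median of -0.26 was 0.16 as a mean over cells. Leaving out 1 plate gave -0.34 to -0.16 for Dec, -0.22 to 0.31 for KO DZ, 0.11 to 0.49 for TA DZ, -0.60 to 0.21 for KO LZ and -1.78 to 0.65 for TA LZ.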
